A study of Mus musculus with 24 samples.

Results

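Neuronatin (Nnat), Peg3 and 8 other imprinted genes, namely Plagl1, Dlk1, Meg3, Grb10, Cdkn1c, Igf2, H19 and Peg10, were followed library by library in mouse islets that lacked Cop1. They are 10 of the 28059 genes measured, taken by name as imprinted genes of islets, and they were picked with results of these libraries known. Expression was measured by RNA sequencing, as RPKM, which divides reads by gene length and library size. The ubiquitin ligase COP1 tags proteins for destruction, and the transcription factors ETV1, ETV4 and ETV5 of the ETS family are among its targets. The genotypes bear on how islets differ without Cop1 and on whether the Etv genes are needed for that difference.

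Mice had a mixed genetic background and an age of 3 to 4 months. The sample numbers in the labels fall into 2 series, called set 1 and set 2, and what separates these sets is not stated. Controls carried Cop1 fl/fl without Cre (3 libraries in set 1 and 4 in set 2). Cop1 deletion libraries came from Cop1 fl/fl Pdx1.CreERT2 mice (3 in set 1 and 4 in set 2). The 4 libraries called Etv1/4/5 were all in set 1, with Pdx1.CreERT2 and the alleles Etv4ko/ko, Etv1fl/fl and Etv5fl/fl on top of Cop1fl/fl. The 4 libraries called Etv4/5 were all in set 2, with Pdx1.CreERT2 and the alleles Etv4ko/+ and Etv5fl/fl on top of Cop1fl/fl. All groups share floxed Cop1, and no group carries the Cre without deleting Cop1, so an effect of the Cre itself and of Cop1 loss cannot be told apart. CreERT2 is a Cre recombinase fused to part of the estrogen receptor and is activated by tamoxifen, and the Pdx1 promoter directs it to β cells and other cells that use Pdx1. The Etv4 allele is labelled ko rather than floxed. The design text speaks of biological replicates but not of how they relate to mice, so p-values measure the spread between these libraries.

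An imprinted gene is transcribed mainly from the copy inherited from 1 parent, because a control region near it was methylated at its CG dinucleotides in the egg or in the sperm. Nnat, Peg3, Plagl1, Dlk1, Igf2 and Peg10 are expressed from the paternal copy, and Meg3, H19, Cdkn1c and, in most tissues, Grb10 from the maternal copy. Many imprinted genes act on fetal growth and decline after birth, but islets keep several of them. Neuronatin in β cells binds the signal peptidase and helps preproinsulin to be processed. An RPKM value sums both parental copies, so none of the values below shows from which copy a transcript came.

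Promoter windows of 7 of the 10 genes were found in RefSeq on the build GRCm38.p6, each running from 250 bases before a start site to 50 after it. The windows of Nnat and Peg3 are shown because these genes were selected for their differences in earlier results of these data. Meg3 is shown as the maternally expressed gene with the highest level. Capitals mark CG dinucleotides, the sites that carry the methylation of an imprint. The Nnat window lies at chr2:157559828-157560127 on the plus strand, within the span of Blcap. The Peg3 window lies at chr7:6730370-6730669 on the minus strand, and the Meg3 window of the first start site at chr12:109540746-109541045 on the plus strand.
Nnat: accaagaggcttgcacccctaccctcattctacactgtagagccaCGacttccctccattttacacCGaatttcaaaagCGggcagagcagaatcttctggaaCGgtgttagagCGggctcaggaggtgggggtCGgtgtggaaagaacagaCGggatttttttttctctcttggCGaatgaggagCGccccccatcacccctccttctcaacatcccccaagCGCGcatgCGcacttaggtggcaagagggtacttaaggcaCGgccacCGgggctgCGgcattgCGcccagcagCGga
Peg3: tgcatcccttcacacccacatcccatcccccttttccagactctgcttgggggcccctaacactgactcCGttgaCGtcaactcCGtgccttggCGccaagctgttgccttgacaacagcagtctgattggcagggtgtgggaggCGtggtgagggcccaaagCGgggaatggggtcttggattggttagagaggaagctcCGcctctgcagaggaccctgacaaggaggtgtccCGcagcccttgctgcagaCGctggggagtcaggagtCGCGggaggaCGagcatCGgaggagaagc
Meg3: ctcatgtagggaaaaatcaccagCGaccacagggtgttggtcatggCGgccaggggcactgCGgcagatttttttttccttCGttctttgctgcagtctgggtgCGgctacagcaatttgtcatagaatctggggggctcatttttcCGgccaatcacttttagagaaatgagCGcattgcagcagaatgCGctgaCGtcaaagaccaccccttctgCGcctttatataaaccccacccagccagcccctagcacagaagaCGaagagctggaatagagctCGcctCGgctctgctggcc
These windows hold 17, 13 and 13 CG dinucleotides, in the order shown. The ETS core CCGGAA, read on both strands, occurred once in the Meg3 window and in no window of the 6 other genes found, Nnat and Peg3 included. It occurred in 14.9% of all 32851 promoter windows. The AP-1 motif TGAGTCA, bound by Fos and Jun proteins, occurred in none of them and in 5.2% of all windows. The cAMP response element TGACGTCA, a motif looked for after the sequences had been seen, occurred in the Peg3 and Meg3 windows and in 1.79% of all windows. The Peg3 window shares 263 bases with that of Usp29, which runs the other way on the plus strand and holds the same element.

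All 22 libraries correlated with their own group at a median Spearman rho of 0.9722 or more. Relative to the deepest library, set 1 had a depth of 0.331 to 0.526 and set 2 of 0.758 to 1, so that a low value rests on fewer reads in set 1. Cop1 itself was 1.22 to 1.55 RPKM in set 1 controls and 1.43 to 1.87 in set 2 controls, and no library labelled as lacking Cop1 exceeded 1.13 RPKM. Esr1 was 99.1 RPKM in the library labelled set 1 control replicate 2, and part of Esr1 belongs to CreERT2. Here the other 2 controls of set 1 had at most 0.191 RPKM, so that library goes against its label. Etv4 averaged 1.26 RPKM in the Etv1/4/5 libraries and 0.0728 RPKM in set 1 controls, so the per-gene value does not follow the ko/ko label. Against Cop1 deletion, Etv1 was 1.12-fold and Etv5 1.32-fold in the Etv1/4/5 libraries, and in the Etv4/5 libraries Etv4 was 0.962-fold and Etv5 0.728-fold, all with overlap. By limma no targeted Etv gene was called lower than after Cop1 deletion in either group, so these values do not show the added Etv deletions, and both groups are named here by their labels. In set 2, replicate 4 of the controls and replicate 2 of Cop1 deletion lay apart for several of the genes below, and results that rest on these libraries are given with and without them. Summed over 7 β-cell markers, set 1 controls held 264000 to 298000 RPKM and Cop1 deletion libraries 217000 to 238000. Set 2 controls held 167000 to 232000 RPKM and Cop1 deletion libraries 166000 to 243000. After Cop1 deletion 4 of these markers fell in each set and 1 rose in set 2, and in such bulk samples fewer β cells and less RNA per β cell cannot be told apart. The sum over 6 ductal markers spanned 153 to 194 RPKM in set 1 controls and 239 to 298 after Cop1 deletion, against 1060 to 1540 and then 2510 to 4040 in set 2. It was 161 to 185 RPKM in the Etv1/4/5 libraries and 954 to 2570 in the Etv4/5 libraries. Of the 5 ductal markers tested, 1 rose in set 1 and 2 in set 2. The sum over 2 δ-cell markers was 3630 to 7090 RPKM in set 1 controls and 2320 to 2800 after Cop1 deletion. With Etv1/4/5 also deleted by label, it was 4520 to 7240 RPKM. In set 2 this sum was 3830 to 5470 RPKM in controls, 2190 to 2940 after Cop1 deletion and 2190 to 2980 in the Etv4/5 libraries. Of these 2 markers 1 fell in each set, and the 1 marker of PP cells rose in each set. The part of these cell types in the results below was not tested.

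**Figure D1:**
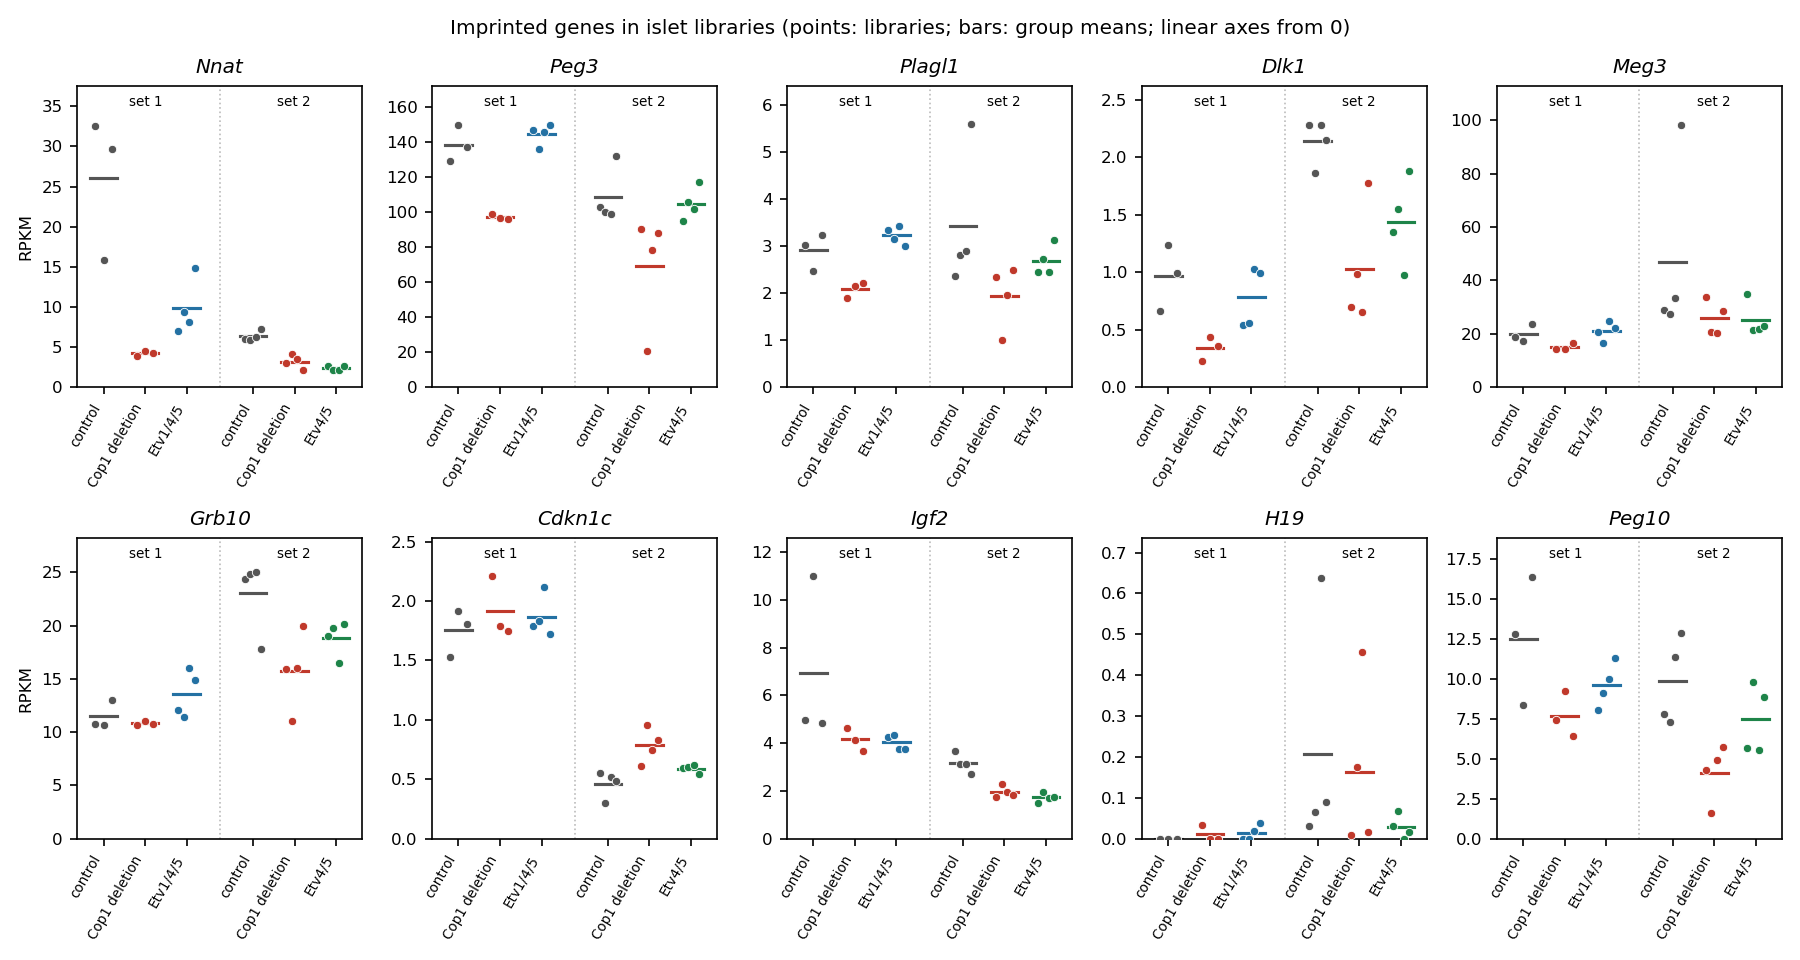
RPKM (vertical, linear axes from 0) of the 10 imprinted genes in 22 islet libraries, grouped by genotype and set; points are libraries and bars are group means. Nnat in set 1 separates controls (15.9 to 32.6 RPKM) from Cop1 deletion (3.89 to 4.44), Peg3 lies at 136 to 150 RPKM in the Etv1/4/5 libraries, and set 2 control replicate 4 stands alone for Meg3 at 98.4 RPKM.

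Nnat was the gene with the widest gap in set 1. In set 1 controls it was 32.6, 15.9 and 29.7 RPKM in replicates 1 to 3, and after Cop1 deletion it was 3.89, 4.44 and 4.21 RPKM in replicates 2 to 4. The mean was 26.1 ± 8.92 RPKM (SD, n = 3) in control and 4.18 ± 0.276 (n = 3) after deletion, which is 16% of control. The 3 Cop1 deletion libraries lay close together and far below every control. The lowest control is the library whose Esr1 goes against its label, and without it the control mean was 31.1 ± 2.08 RPKM (n = 2). In the Etv1/4/5 libraries Nnat was 6.96, 9.35, 8.1 and 14.9 RPKM. All 4 were above every Cop1 deletion library and below every control, with a mean of 9.83 ± 3.52 RPKM (n = 4), or 37.7% of control.

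In set 2 the controls held far less Nnat, at 6.04, 5.91, 6.25 and 7.28 RPKM. After Cop1 deletion it was 3.05, 4.12, 3.48 and 2.06 RPKM, and in the Etv4/5 libraries 2.65, 2.16, 2.14 and 2.59. Both deletion groups lay wholly below control, at 49.9% and 37.4% of the control mean, and they overlapped each other. The direction after Cop1 deletion was thus the same in both sets, while the mean in Etv4/5 libraries was below that after Cop1 deletion alone. The summed δ-cell markers given above were likewise below control after Cop1 deletion in both sets and in Etv4/5, and overlapped control in Etv1/4/5, and their part in the Nnat values was not tested. The log2 fold changes of RPKM + 0.5 were -2.44 (SE 0.25) in set 1 and -0.93 (SE 0.22) in set 2, and the added Etv deletions stood at 1.09 (SE 0.24) and -0.32 (SE 0.22) against Cop1 deletion. No p is given for Nnat or Peg3, since they were selected for their differences. Between 107 and 811 reads stood behind each Nnat value in set 1 and between 117 and 486 in set 2.

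Peg3, a paternally expressed zinc finger protein that regulates growth and metabolism, was the most abundant of the 10 genes per length, ranking 377 by mean RPKM among all genes. In set 1 it was 129, 150 and 137 RPKM in controls and 98.8, 96.6 and 96.3 after Cop1 deletion. The Etv1/4/5 libraries had 147, 136, 146 and 150 RPKM. Every Cop1 deletion library was thus below every other library of set 1, at 70.2% of the control mean, while the Etv1/4/5 libraries overlapped the controls at 104%. In set 2 the controls had 103, 99.8, 99.1 and 132 RPKM. The Cop1 deletion libraries had 90.2, 20.4, 78.1 and 88, and the Etv4/5 libraries 94.7, 106, 102 and 117 RPKM. All Cop1 deletion libraries were again below the other 8, although replicate 2 alone was far below the rest. The log2 fold change after Cop1 deletion was -0.51 (SE 0.35) in set 1 and -0.84 (SE 0.30) in set 2, and without set 2 Cop1 deletion replicate 2 the latter was -0.33. Against Cop1 deletion the Etv4/5 libraries stood at 0.80 (SE 0.30), and at 0.29 without that replicate. Each SE rests on 1 spread per gene shared by all 22 libraries, so that replicate enters the SE of set 1 too. The set 1 groups themselves were 139 ± 10.5 RPKM in control and 97.3 ± 1.37 after Cop1 deletion (SD, n = 3 each). The RefSeq table places an antisense gene, Peg3os, inside Peg3, and without a stated strand their reads cannot be told apart.

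For the 7 other genes that passed the filter on low values (at least 1 RPKM in at least 4 libraries), limma was fitted over all 14342 genes tested, and adjusted p is its Benjamini-Hochberg value over all of them. H19 did not pass. The fit used 1 estimate of the spread per gene, shared by all 22 libraries, so a p for set 1 also reflects the spread in set 2. After Cop1 deletion in set 1, Dlk1 was the 1 of these 7 that passed an adjusted p of 0.05, and it fell, where 8.33% of all genes tested were called and 4.29% were called lower. In set 2, 5 of the 7 fell (Plagl1, Dlk1, Grb10, Igf2 and Peg10) and 1 rose (Cdkn1c), against 18.8% called among all genes, 9.75% lower and 9.09% higher. On the mean of both sets, 4 fell (Plagl1, Dlk1, Igf2 and Peg10) and 1 rose (Cdkn1c), against 20.1% called, 10.5% lower and 9.57% higher. Without set 2 Cop1 deletion replicates 2 and 3, none of the 7 was called in set 2 by limma. An unadjusted p below 0.05 was reached by 5 of them, against 24.9% of all genes tested. On the mean of both sets Dlk1, Igf2 and Peg10 then still fell. Without the 3 libraries that stand apart (replicate 2 of set 1 control and, in set 2, replicate 4 of control and replicate 2 of Cop1 deletion), Plagl1 and Peg10 fell in set 1 and Dlk1 did not pass, while in set 2 Dlk1, Grb10, Igf2 and Peg10 fell and Cdkn1c rose. By position, 4 of these 7 (Plagl1, Dlk1, Meg3 and Igf2) had all Cop1 deletion libraries below all controls in set 1, as did 15.3% of all genes tested. In set 2 this held for 3 (Dlk1, Igf2 and Peg10), against 8.43%, and Cdkn1c alone had all above, against 7.63%. Over the 7 genes the median log2 fold change was -0.40 in set 1 and -0.66 in set 2, and over all genes tested it was -0.006 and -0.017. The filter and the choice of genes both bear on these counts. Cdkn1c was the gene above 0 in both sets.

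**Figure D2:**
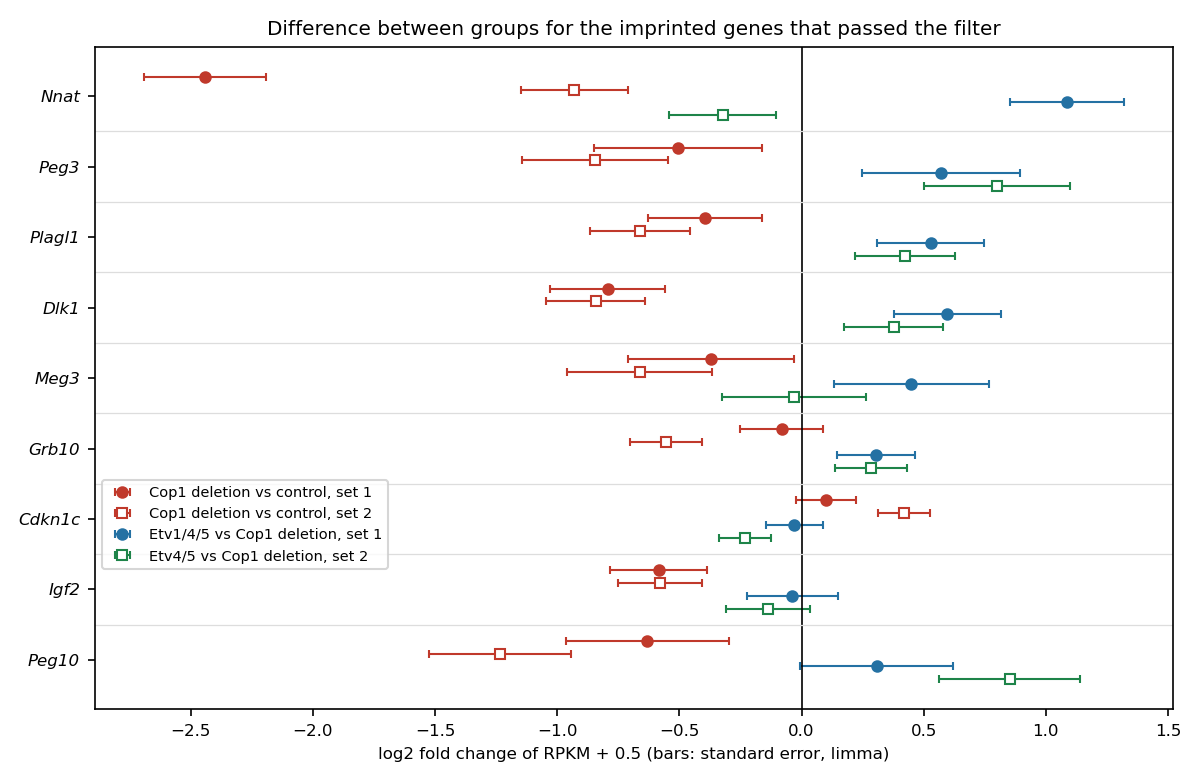
Log2 fold change of RPKM + 0.5 (horizontal) with its standard error from limma, for the 9 imprinted genes that passed the filter; red marks compare Cop1 deletion with control and blue or green marks compare the Etv deletions with Cop1 deletion, filled for set 1 and open for set 2. Both kinds of comparison use the same Cop1 deletion libraries, so opposite signs at 1 gene are not independent, and Nnat at -2.44 is the value farthest from 0.

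Among the regulators of growth, Plagl1 (Zac1), a zinc finger factor that controls other imprinted genes, was 3.03, 2.47 and 3.24 RPKM in set 1 controls and 1.89, 2.16 and 2.22 after Cop1 deletion. The Etv1/4/5 libraries had 3.34, 3.15, 3.44 and 3.01 RPKM. As with Peg3, all 3 Cop1 deletion libraries were below the other 7 of the set, yet the log2 fold change of -0.40 did not pass (limma adjusted p = 0.39). That p uses the spread shared with set 2, and the difference passed in 3 of 34 alternatives (lowest limma adjusted p = 0.0023). Etv1/4/5 against Cop1 deletion stood at 0.53 (limma adjusted p = 0.18) and likewise passed in 3 of 34 (lowest limma adjusted p = 0.00085). In set 2 Plagl1 was 2.36, 2.82, 2.9 and 5.6 RPKM in controls, 2.34, 0.997, 1.96 and 2.5 after Cop1 deletion and 2.44, 2.73, 2.45 and 3.13 in the Etv4/5 libraries. It fell by 0.66 there (SE 0.20, limma adjusted p = 0.029), with groups that overlapped. That call rests on the highest control and the lowest deletion library, since without set 2 control replicate 4 the value was -0.43 (limma adjusted p = 0.077) and without set 2 Cop1 deletion replicate 2 it was -0.44 (limma adjusted p = 0.1).

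Grb10, an adaptor that inhibits the insulin and IGF receptors, was 10.8, 10.7 and 13 RPKM in set 1 controls and 10.7, 11 and 10.8 after Cop1 deletion, groups that overlapped throughout (log2 fold change -0.08, limma adjusted p = 0.87). Set 2 held more of it, at 24.4, 24.9, 25 and 17.8 RPKM in controls and at 15.9, 11, 16 and 20 after Cop1 deletion. It fell there by 0.55 (SE 0.15, limma adjusted p = 0.013), or by 0.35 without Cop1 deletion replicates 2 and 3 (limma adjusted p = 0.15), and the Etv4/5 libraries (16.5 to 20.2 RPKM) overlapped both groups. Igf2, the fetal growth factor that signals through these receptors, was 4.99, 11 and 4.85 RPKM in set 1 controls, 4.64, 4.15 and 3.68 after Cop1 deletion and, in the Etv1/4/5 libraries, 3.75 to 4.36. The high control is again replicate 2, and without it the log2 fold change went from -0.58 (limma adjusted p = 0.077) to -0.22 (limma adjusted p = 0.34). In set 2 Igf2 was 3.65, 3.14, 3.11 and 2.72 RPKM in controls and 1.75, 2.28, 1.95 and 1.81 after Cop1 deletion, with no overlap. The Etv4/5 libraries had 1.49, 1.97, 1.7 and 1.73 RPKM, likewise all below control. Igf2 fell by 0.58 after Cop1 deletion (SE 0.17, limma adjusted p = 0.024) and by 0.72 in Etv4/5 against control (SE 0.17, limma adjusted p = 0.012). The former call did not hold without set 2 control replicate 1 (-0.52, limma adjusted p = 0.075) or replicate 2 (-0.58, limma adjusted p = 0.052), and without set 1 control replicate 2 it was at limma adjusted p = 0.00043. The microRNA gene Mir483 and part of Igf2os overlap Igf2 in RefSeq, and the counting of such reads is not stated.

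Cdkn1c, which encodes the cyclin-dependent kinase inhibitor p57, was the exception in direction. It was 1.53, 1.92 and 1.81 RPKM in set 1 controls, 2.21, 1.79 and 1.75 after Cop1 deletion and, in the Etv1/4/5 libraries, 1.72 to 2.12, all overlapping. Set 2 controls had 0.549, 0.296, 0.52 and 0.487 RPKM and Cop1 deletion libraries 0.611, 0.954, 0.746 and 0.834. All deletion libraries were above all controls, and the rise of 0.42 passed (SE 0.11, limma adjusted p = 0.0097), or was 0.35 without Cop1 deletion replicates 2 and 3 (limma adjusted p = 0.088). The Etv4/5 libraries overlapped both groups, at 0.546 to 0.618 RPKM. Only 24 to 89 reads stood behind each Cdkn1c value in set 2.

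Dlk1, a membrane and secreted protein of the Notch ligand family that restrains differentiation, passed the test in both sets. In set 1 it was 0.659, 1.24 and 0.994 RPKM in controls, 0.223, 0.433 and 0.358 after Cop1 deletion and 0.541, 0.556, 1.03 and 0.997 in the Etv1/4/5 libraries. All Cop1 deletion libraries lay below the other 7 of the set. Dlk1 fell by 0.79 (SE 0.24, limma adjusted p = 0.042), and without set 1 control replicate 2 the value was -0.66 (limma adjusted p = 0.14). In all, the set 1 call of Dlk1 was lost in 14 of 34 alternatives. In set 2 Dlk1 was 2.28, 1.86, 2.28 and 2.15 RPKM in controls, 0.694, 0.986, 0.656 and 1.78 after Cop1 deletion and 1.35, 1.55, 0.971 and 1.88 in the Etv4/5 libraries. Cop1 deletion lay wholly below control and the fall of 0.84 passed (SE 0.20, limma adjusted p = 0.0071), or was -0.68 without Cop1 deletion replicates 2 and 3 (limma adjusted p = 0.088). On the mean of both sets the fall was 0.82 (SE 0.16, limma adjusted p = 0.00086). As Dlk1 is near the pseudocount of 0.5, these folds understate the change of RPKM, whose group means after Cop1 deletion were 35% of control in set 1 and 48% in set 2.

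Meg3, a long noncoding RNA expressed from the maternal copy of the same domain as Dlk1, was called in no comparison by limma. In set 1 it was 18.6, 17.1 and 23.6 RPKM in controls and 14.4, 14.4 and 16.4 after Cop1 deletion, which do not overlap (log2 fold change -0.37, limma adjusted p = 0.63). The Etv1/4/5 libraries had 20.6, 16.4, 24.7 and 22.2 RPKM. In set 2 it was 28.8, 27.5, 33.3 and 98.4 RPKM in controls, 33.7, 20.6, 20.3 and 28.6 after Cop1 deletion and 34.8, 21.4, 21.8 and 22.8 in the Etv4/5 libraries. The value of 98.4 RPKM, in set 2 control replicate 4, stands far above the next highest control. Without it the set 2 difference went from -0.66 to -0.24, neither of which passed (limma adjusted p = 0.12 and 0.38). Rtl1 overlaps Meg3 in part.

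Peg10, a retrotransposon-derived gene that the placenta needs, was 12.8, 8.36 and 16.4 RPKM in set 1 controls, 7.45, 9.22 and 6.42 after Cop1 deletion and 8.04, 9.13, 9.96 and 11.3 in the Etv1/4/5 libraries, with overlap (log2 fold change -0.63, limma adjusted p = 0.31). Values in set 2 were 7.77, 7.3, 11.4 and 12.9 RPKM in controls and 4.31, 1.59, 4.9 and 5.72 after Cop1 deletion, with no overlap. It fell there by 1.23 (SE 0.29, limma adjusted p = 0.006) and by 0.89 without the lowest library, replicate 2 (limma adjusted p = 0.016), and without replicates 2 and 3 the value was -0.88 (limma adjusted p = 0.051). The Etv4/5 libraries, at 5.69, 9.81, 5.52 and 8.84 RPKM, overlapped both groups.

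H19, a maternally expressed noncoding RNA next to Igf2 that is abundant in the embryo, was nearly absent. It had 0 reads in all 3 set 1 controls and at most 2 reads in any other library of set 1. The set 2 values were 0.0308, 0.0642, 0.638 and 0.0903 RPKM in controls, 0.00769, 0.175, 0.456 and 0.0149 after Cop1 deletion and 0 to 0.0684 in the Etv4/5 libraries. The 3 highest libraries held 81, 22 and 56 reads, and they are replicate 3 of the controls and replicates 2 and 3 of Cop1 deletion. Summed over 10 stromal markers, these libraries had 116, 115 and 168 RPKM, where the other controls and Cop1 deletion libraries of set 2 had 18 to 77.4. The Etv4/5 libraries had 90.7 to 114 RPKM of the same markers, and the part of stroma in the H19 values was not tested.

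The Etv deletions brought no call among the 7 tested genes against Cop1 deletion in either set by limma, where 6.34% of all genes were called in set 1 and 1.73% in set 2. At an unadjusted p below 0.05 there were 2 in each, against 18.7% of all genes tested in set 1 and 22.9% in set 2. The smallest adjusted p among them was 0.12, for Dlk1 in set 1 and for Peg10 in set 2. By position, 3 of the 7 (Plagl1, Dlk1 and Grb10) had every Etv1/4/5 library above every Cop1 deletion library, as did 16.6% of all genes tested. In the Etv4/5 libraries this held for none of the 7, against 7.22% of all genes. Against control, Igf2 was the 1 gene called in Etv4/5, and it fell (8.74% of all genes were called and 3.75% fell). In Etv1/4/5 none was called against control (1.32%), and 1 had an unadjusted p below 0.05, as did 10.1% of all genes. Of the 7, Igf2 alone lay wholly below control in both Etv groups, where 7.54% of all genes tested did so in Etv1/4/5 and 10.6% in Etv4/5. The Cop1 effect in set 1 minus that in set 2 was called for none of the 7 by limma, against 2.83% of all genes. There was 1 at an unadjusted p below 0.05, against 17.1% of all genes. For Nnat the difference between the sets was -1.51 (SE 0.33).

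**Figure D3:**
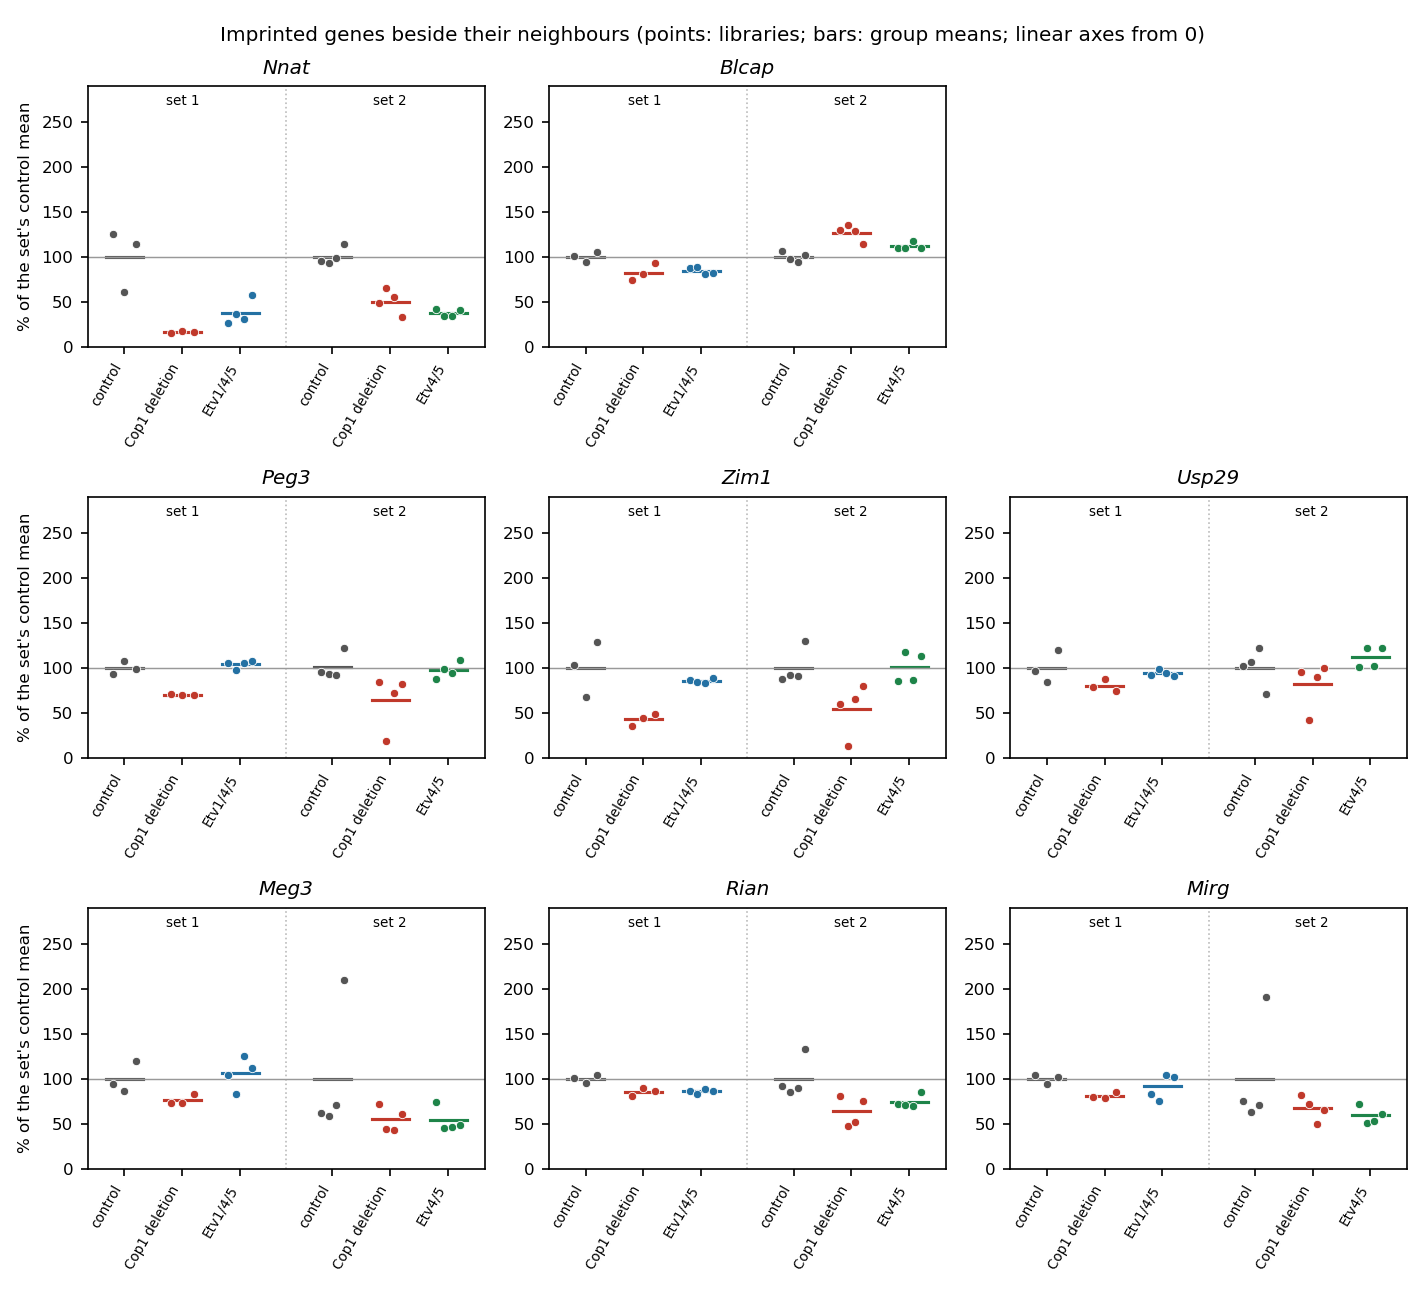
Values as a percentage of the control mean of the same set (vertical, linear from 0) for Nnat, Peg3 and Meg3 in the left column and neighbours of the same imprinted domain beside them; points are libraries and bars are group means. Zim1, like Peg3, is lowest after Cop1 deletion, at 42.8% of control in set 1, Blcap does not follow Nnat, and set 2 control replicate 4 is high for Meg3, Rian and Mirg.

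Neighbours in the same domains were compared in the same way. Blcap, within whose span Nnat lies, did not share the wide gap of Nnat. It was 23.4, 21.7 and 24.5 RPKM in set 1 controls and 17.1, 18.7 and 21.5 after Cop1 deletion, a fall of 0.28 (SE 0.08, limma adjusted p = 0.034), which did not pass when all libraries were scaled to equal total RPKM (-0.15, limma adjusted p = 0.34) or without set 1 Cop1 deletion replicate 2 (-0.20, limma adjusted p = 0.19). In set 2 it went the other way, from 25.2, 23, 22.2 and 24.1 RPKM to 30.5, 32, 30.4 and 26.9, a rise of 0.33 (SE 0.07, limma adjusted p = 0.0023). The difference between the sets, -0.61, passed its own test (SE 0.10, limma adjusted p = 0.0032).

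In the Peg3 domain, Zim1, a maternally expressed zinc finger gene, was 8.83, 5.76 and 11 RPKM in set 1 controls, 3, 3.79 and 4.18 after Cop1 deletion and, in the Etv1/4/5 libraries, 7.11 to 7.58. In set 2 it was 6.59, 6.86, 6.84 and 9.75 RPKM, then 4.46, 0.933, 4.87 and 5.96, then 6.41 to 8.78 in the Etv4/5 libraries. Like Peg3, it was below all other libraries of its set after Cop1 deletion. Zim1 fell by 1.04 on the mean of both sets (SE 0.24, limma adjusted p = 0.0047), by 0.998 in set 2 (limma adjusted p = 0.035) and not past the threshold in set 1 (-1.09, limma adjusted p = 0.077). The set 2 call was lost without control replicate 4 (-0.87, limma adjusted p = 0.074) and without Cop1 deletion replicate 2 (-0.51, limma adjusted p = 0.058). Without the 3 libraries that stand apart, the mean over both sets was -0.86 (limma adjusted p = 9.1e-06). In all, the set 1 difference passed in 5 of 34 alternatives, and the set 2 call was lost in 9 of 34. Against Cop1 deletion Zim1 stood at 0.92 in Etv1/4/5 (limma adjusted p = 0.13) and at 1.01 in Etv4/5 (limma adjusted p = 0.1). These 2 differences passed in 5 and 3 of 34 alternatives. Usp29, which shares its promoter region with Peg3 and is paternally expressed, was called in no comparison by limma, at 1.49 to 1.75 RPKM after Cop1 deletion and 1.7 to 2.4 in controls of set 1. Peg3 and Zim1 were thus both lowest after Cop1 deletion in each set. Of all genes tested, 15.3% lay wholly below control after Cop1 deletion in set 1 and 8.43% in set 2. These shares take each set alone and leave out the Etv libraries, and the share below all other libraries in both sets was not computed.

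In the domain of Dlk1 and Meg3, Rian, a maternally expressed noncoding RNA that hosts small nucleolar RNAs, was 69.2 to 75.8 RPKM in set 1 controls and 58.5 to 64.9 after Cop1 deletion. Its set 2 values were 53.5, 49.5, 52.2 and 76.9 RPKM in controls and 46.7, 27.5, 30.3 and 43.6 after Cop1 deletion. Rian fell by 0.65 in set 2 (SE 0.14, limma adjusted p = 0.0037), or was -0.34 without Cop1 deletion replicates 2 and 3 (limma adjusted p = 0.096), and by 0.44 on the mean of both sets (SE 0.11, limma adjusted p = 0.0072). Mirg, the microRNA host further along, was called in no comparison by limma. Set 2 control replicate 4 was the highest control for Meg3, Rian (76.9 RPKM) and Mirg (24 RPKM, where the other controls had 7.89 to 9.47), though not for Dlk1 (2.15 RPKM).

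Beside Peg10, the paraoxonase genes Pon2 and Pon3 rose in both sets, while Peg10 fell in set 2 and did not pass in set 1. Pon3 was 10, 10.8 and 9.67 RPKM in set 1 controls and 20.5, 22 and 26.6 after Cop1 deletion, and, in the Etv1/4/5 libraries, 12.7 to 13.7. It rose by 1.14 in set 1 (SE 0.12, limma adjusted p = 5.3e-06) and by 0.63 in set 2 (SE 0.10, limma adjusted p = 0.00032). Pon2 rose by 0.76 and 0.71 (limma adjusted p = 0.00011 and 3e-05). Against Cop1 deletion the Etv1/4/5 libraries had less of both (Pon3 -0.79, limma adjusted p = 0.0002, and Pon2 -0.59, limma adjusted p = 0.001). The Etv4/5 libraries did not have less of them. Pon3 was 40.1 to 43.5 RPKM there, above all Cop1 deletion libraries of set 2 at 25.8 to 38.5 (0.40, limma adjusted p = 0.051), and Pon2 overlapped them (0.16, limma adjusted p = 0.31). Both were higher in Etv4/5 than in control (1.04 for Pon3 and 0.87 for Pon2, limma adjusted p = 3e-06 and 6.3e-06). Sgce, which shares a start region with Peg10, was 4.92 to 5.62 RPKM after Cop1 deletion and 4 to 7.09 in controls of set 1. Ddc, the enzyme of dopamine and serotonin synthesis beside Grb10, fell by 1.53 in set 2 (SE 0.23, limma adjusted p = 0.00015), from 92.4 ± 27.1 to 31.8 ± 10.4 RPKM (n = 4 each). In set 1 it did not pass (-0.46, limma adjusted p = 0.37), at 195 ± 11.3 RPKM in control and 143 ± 18.6 after Cop1 deletion (n = 3 each). It was higher in Etv4/5 than after Cop1 deletion (0.95, limma adjusted p = 0.04), at 61.1 ± 15.3 RPKM (n = 4). The values of these groups overlapped, at 40.1 to 76.6 RPKM in Etv4/5 and 21.3 to 42 after Cop1 deletion. With set 2 fitted alone, limma called no gene in this comparison, while 2077 genes had an unadjusted p below 0.05. Near Cdkn1c, the transporter gene Slc22a18 rose in both sets (0.86 and 0.79, limma adjusted p = 0.0073 and 0.0027), as did the tetraspanin gene Cd81 (0.59 and 0.68, limma adjusted p = 0.045 and 0.0042). Neither was called in set 2 without Cop1 deletion replicates 2 and 3. In set 1 the Cd81 values of Cop1 deletion (61.2 to 87.1 RPKM) and control (36.9 to 61.8) overlapped. Tssc4, also near Cdkn1c, fell in set 2 (-0.355, limma adjusted p = 0.0037) and did not pass in set 1 (-0.288, limma adjusted p = 0.054). Nap1l4 rose in set 2 alone (0.21, limma adjusted p = 0.0026), and Kcnq1 and Osbpl5 were called in no comparison by limma.

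Of the 53 other imprinted genes tested, from a list of 74, Cop1 deletion raised 5 and lowered 1 in set 1, raised 10 and lowered 8 in set 2, and raised 7 and lowered 8 on the mean of both sets. Among all genes tested, 8.33%, 18.8% and 20.1% were called in these comparisons. The median log2 fold change of the 53 was 0.03, -0.08 and 0.03. Ndn (necdin), a paternally expressed MAGE protein, rose from 33.5, 30.7 and 34.8 RPKM to 45.2, 46.7 and 48.3 in set 1 (0.50, limma adjusted p = 0.0004) and by 0.33 in set 2 (limma adjusted p = 0.0025). The genes of this list were thus called in both directions, and whether each of them is imprinted in islets was not tested. Without set 2 Cop1 deletion replicates 2 and 3, 7 of the 53 rose and 4 fell in set 2. An unadjusted p below 0.05 then held for 22 of the 53, against 24.9% of all genes tested.

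Of the 14 tested genes that maintain imprints, none was called in set 1 by limma. Only 1 had an unadjusted p below 0.05 there, against 20.3% of all genes. In set 2, 3 fell, among them the zinc finger protein Zfp445 (-0.45, limma adjusted p = 0.02) and the DNA methyltransferase Dnmt3a (-0.36, limma adjusted p = 0.033). Without Cop1 deletion replicates 2 and 3, Dnmt3a was no longer called. None was called on the mean of both sets by limma, with 3 at an unadjusted p below 0.05, against 32.5% of all genes. Also tested were 16 genes of the signal peptidase and of entry into the endoplasmic reticulum, where neuronatin acts. Of these, 4 rose in set 1, 1 in set 2 and 5 on the mean of both sets, and none fell. Unadjusted p was below 0.05 for 8 in set 1 and 4 in set 2, against 20.3% and 33.8% of all genes. For these lists too, 8.33%, 18.8% and 20.1% of all genes tested were called, and the share of the signal peptidase list in set 2 was below that. Without the 3 libraries that stand apart, 11 of these 16 rose in set 1 and 3 in set 2. Of the 16, 12 and 6 then had an unadjusted p below 0.05, against 32.8% and 36.6% of all genes. Sec11c, a catalytic subunit of the signal peptidase, was 133, 133 and 117 RPKM in set 1 controls, 206, 197 and 199 after Cop1 deletion and, in the Etv1/4/5 libraries, 126 to 147. It rose by 0.65 in set 1 (SE 0.08, limma adjusted p = 3.1e-05) and by 0.63 in set 2 (SE 0.07, limma adjusted p = 7e-06), and fell by 0.54 in Etv1/4/5 against Cop1 deletion (limma adjusted p = 0.00018). In the Etv4/5 libraries it was 244 to 265 RPKM, above the set 2 controls at 167 to 175.

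Among 13 tested genes of the IGF and insulin receptor axis, Grb14, an adaptor of the same family as Grb10, rose in both sets and none fell in set 1. It was 15.8 to 17.9 RPKM in set 1 controls, 28.9 to 34.9 after Cop1 deletion and, in the Etv1/4/5 libraries, 14.2 to 16.5. The rise was 0.88 in set 1 (SE 0.14, limma adjusted p = 0.00044) and 0.43 in set 2 (SE 0.12, limma adjusted p = 0.02), and in set 2 Irs2, a receptor substrate, fell by 0.98 (limma adjusted p = 0.027). Neither set 2 call held without Cop1 deletion replicates 2 and 3. Of 4 tested inhibitors of cyclin-dependent kinases other than Cdkn1c, Cdkn2c fell in set 1 (-0.64, limma adjusted p = 0.013) and Cdkn2b rose in set 2 (1.03, limma adjusted p = 0.00011). Of 9 tested genes of the Notch pathway, none was called in set 1 by limma. Among these 9, 2 had an unadjusted p below 0.05 there, against 20.3% of all genes. Notch1 fell in set 2 (-0.59, limma adjusted p = 0.00053). On the mean of both sets Notch1 and Dll1 fell (limma adjusted p = 0.0073 and 0.039) and Hes1 rose (limma adjusted p = 0.014). Among all genes tested, 8.33% were called in set 1, 18.8% in set 2 and 20.1% on the mean of both sets. These lists are short, and no conclusion about a list is drawn from its count of calls.

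Likeness to Nnat and Peg3 over all 22 libraries was measured as the mean absolute difference of log2(RPKM + 0.5), each gene taken relative to its control mean in the set. The 5 genes most like Nnat were Crhr1, the receptor of corticotropin-releasing hormone (0.39), Npas4, an activity-induced transcription factor (0.42), Rasd1, a Ras-like protein (0.43), Adam32 (0.44) and Emid1 (0.47), where the median over all genes tested was 1.06. Igf2 ranked 89 and Dlk1 196, and Peg3 ranked 3504. The 5 most like Peg3 were Peg3os (0.05), Thoc2l (0.14), Ccnt1, a subunit of the elongation factor P-TEFb (0.14), Abhd2 (0.15) and Sec24a (0.16), against a median of 0.33, and Plagl1 ranked 103. Peg3os lies inside Peg3 and their reads cannot be told apart, so its distance may reflect shared reads. These libraries share depth and composition within a set, and a distance is a description of them. In turn, Nnat ranked 14207 in likeness to Peg3. With 14342 genes tested, some gene outside the 10 is likely to lie nearest to any gene, so no conclusion is drawn from that.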

How the data were processed

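Islet total RNA was extracted with a column kit and DNase after culture and handpicking, per the labels' protocols. The authors deposited RPKM values per gene. Reads were mapped to mm9, per the submitters' processing notes, while nothing in the sources used here names the aligner, counter, strand or annotation. Of 24 columns, 22 matched 1 title each and 2 were not used. NCBI Gene numbers matched a RefSeq symbol for 24998 of 28059 genes. The 14342 genes that reached 1 RPKM in 4 libraries or more went into limma 3.58.1 (R 4.3.3) on log2(RPKM + 0.5), with trended and robust variance, 6 group means and Benjamini-Hochberg adjustment over all genes (threshold 0.05, 2-sided). The pseudocount shrinks fold changes of low genes. Whole reads behind each of the 10 genes were worked out from the steps of low values. Relative depth limits precision, more so in set 1. Named were the 10 genes, their domain neighbours, the 5 genes most like Nnat and Peg3, and up to 4 called genes per list. These genes and lists were chosen with earlier results of these data known. The script was tested on simulated data. Alternatives changed the pseudocount, filter, scaling, variance model, sets fitted, weights and libraries.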

Additional observations from a re-analysis of the deposited data

Results flagged for a closer look

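Of 60 groups of 4 libraries, 11 held a library whose gap to the nearest other one took more than 0.829 of the group's range, and chance alone gives about 1 in 20 groups. Set 2 control replicate 4 was that library for 7 genes. It was high for Peg3 (132 RPKM, others 99.1 to 103), Plagl1 (5.6 RPKM, others 2.36 to 2.9), Meg3 (98.4 RPKM, others 27.5 to 33.3) and Zim1 (9.75 RPKM, others 6.59 to 6.86). It was also high for Rian (76.9 RPKM, others 49.5 to 53.5) and Mirg (24 RPKM, others 7.89 to 9.47), and low for Grb10 (17.8 RPKM, others 24.4 to 25). H19 reached 0.638 RPKM in set 2 control replicate 3, where the other controls had 0.0308 to 0.0903.

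Among the Etv4/5 libraries, Meg3 was 34.8 RPKM in replicate 1 (others 21.4 to 22.8), Blcap 27.7 RPKM in replicate 3 (others 25.8 to 26) and Rian 49.4 RPKM in replicate 4 (others 40.5 to 41.8). The Cop1 deletion effect in set 1 minus that in set 2 differed from 0 for Blcap (-0.61 on the log2 scale, limma adjusted p = 0.0032). For Nnat this difference was -1.51 on the log2 scale, given as a description because Nnat was selected for its differences.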

How the results depend on the processing

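No paired analysis was possible because the labels give the libraries no replicate numbers. The alternatives without set 2 Cop1 deletion replicates 2 and 3, and without the 3 libraries that stand apart, were chosen after seeing the data. In this order of comparisons, Cop1 deletion in set 1, in set 2, on the mean of both sets, Etv1/4/5 against Cop1 deletion, Etv1/4/5 against control, Etv4/5 against Cop1 deletion, Etv4/5 against control, and set 1 minus set 2, limma called 1195, 2702, 2877, 909, 189, 248, 1253 and 406 genes. With array weights it called 5429, 5035, 6259, 3712, 3022, 3217, 4766 and 3872. Leaving out 1 library at a time gave 718 to 1890, 1933 to 3411, 2272 to 3393, 542 to 1516, 91 to 358, 15 to 767, 801 to 1997 and 218 to 843. Sets fitted alone gave 2112 for Cop1 deletion in set 1, 1469 in set 2, 1704 for Etv1/4/5 against Cop1 deletion, 664 for Etv4/5 against control and 0 for Etv4/5 against Cop1 deletion (2077 at an unadjusted p below 0.05). Equal total RPKM gave 1627 for Etv1/4/5 against Cop1 deletion (237 higher, 1390 lower, median of all genes -0.131) and 613 for set 1 minus set 2 (531 higher, 82 lower, median 0.20), and without Ins1 and Ins2 gave 4673 for Cop1 deletion in set 2 (628 higher, 4045 lower, median -0.164). Without replicates 2 and 3 the counts were 2061 for Cop1 deletion in set 1, 1585 in set 2, 1691 and 330 for Etv1/4/5 against Cop1 deletion and control, and 44 and 2231 for Etv4/5. Without the 3 libraries they were 2918 for Cop1 deletion in set 1, 2588, 1370, 517 and 2578 for the Etv comparisons in the same order, and 1807 for set 1 minus set 2.

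Of the 7 imprinted genes tested, the 1 called in set 1 became 0 with pseudocount 1, no filter or equal total RPKM. In each setting 2 had an unadjusted p below 0.05, against 20.4%, 16.6% and 23.6% of all genes. The 1 became 2 with set 1 alone or without the 3 libraries, and 3 with array weights. Without replicates 2 and 3, 0 were called in set 2 and 3 on the mean of both sets. For Etv1/4/5 against Cop1 deletion the 0 became 1 with set 1 alone or without the 3 libraries and 2 with array weights, and against control it became 1 with array weights. For Etv4/5 the 0 against Cop1 deletion became 1 with array weights, and the 1 against control became 2 with array weights or without the 3 libraries. The 0 of set 1 minus set 2 became 1 without the 3 libraries. Leaving out 1 library at a time gave 0 to 2 in set 1, 5 to 6 in set 2, 3 to 6 on the mean, 0 to 0 for both comparisons of Etv1/4/5, for Etv4/5 against Cop1 deletion and for set 1 minus set 2, and 1 to 1 for Etv4/5 against control. Igf2 in set 1 minus set 2 went from -0.006 to 0.48 without the 3 libraries (limma adjusted p = 0.035). The cause of these shifts was not tested. Set 1 was less deep, and Dlk1 and Cdkn1c rest on few reads.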
